A study of Mus musculus with 4 samples.

Results

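The epithelial genes described here are 10 mouse genes whose proteins join epithelial cells to each other or brace them from within, namely the claudins Cldn4, Cldn6 and Cldn7, the keratins Krt7, Krt8, Krt18 and Krt19, the adhesion molecule Epcam and the classical cadherins Cdh1 and Cdh2. They were taken by gene symbol, and the 10 were found among the 25209 genes of every library. All 10 passed the filter of at least 10 cells with a count, as did 18454 genes in all. No level or test result was part of the rule, but the genes were chosen with earlier results of these data known.

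In an epithelium, claudins span the membrane at tight junctions and set which ions and solutes pass between cells. Keratins are intermediate filaments that form obligate pairs of an acidic and a basic protein, with Krt8 and Krt18 the pair of simple epithelia and of the early endoderm and extraembryonic lineages. Cdh1 (E-cadherin) holds pluripotent and epithelial cells together at adherens junctions, and Cdh2 (N-cadherin) takes its place in mesoderm leaving the primitive streak and in neural tissue.

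LSD1 KO cells carry a CRISPR/Cas9 deletion of the promoter and the first exon of Kdm1a, the gene of the histone demethylase LSD1, made in V6.5 ESCs and picked as clones, and WT cells are the unedited V6.5 line. Both were grown naive in 2i with LIF and then formed embryoid bodies (EBs) in hanging drops for 6 days, in medium with 15% serum and neither LIF nor the inhibitors, so that differentiation was spontaneous. Dissociated EBs were read with 10x Chromium 3′ libraries, 2 for LSD1 KO and 2 for WT. Which clone or culture fed a library is not labelled. The study calls the replicates biological, and p-values below take these libraries as the replicates. In edgeR's tests the spread of each gene between libraries is moderated by that of all genes tested.

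Libraries held 72285943 to 75406512 unique molecular identifiers (UMIs, each a tag of 1 captured RNA). Cells were the barcodes that reached 500 UMIs and 500 genes, which gave 5693 and 3045 LSD1 KO cells and 4393 and 6828 WT cells. Median UMIs per cell were 11402 and 20304 in LSD1 KO libraries and 11698 and 9211 in WT libraries. Any pair of libraries shared 3 to 15 cell barcodes. The matrices held 0 mitochondrial genes, so that sign of cell quality was not used. Kdm1a stood at 1.10 and 0.810 CPM (counts scaled to a common library total) in LSD1 KO libraries, against 221 and 246 CPM in WT libraries. Its 3′ tags lie outside the deleted part, so they check the labels only through the loss of the transcript.

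A single motif was picked after most of the genes were seen to fall together. It was CACCTG, the E-box that Snail and Zeb repressors are known to bind, and was searched in the 250 bases before each gene's start. RefSeq (GRCm38.p6) gave a promoter for 7 of the 10 genes, 8 windows in all, and none was used for Krt19, Cdh1 and Cdh2. The motif was on either strand in 7 of 8 windows, against 17.2% of 32851 windows of that length, which were not matched to these genes. The remaining window, at the upstream start of Cldn7 (chr11:69964529-69964778, plus strand), had 0 matches. The windows of the claudins and keratins with the largest counts and of Epcam are shown 5′ to 3′ on the gene's strand, with each CACCTG or its reverse complement CAGGTG in capitals. They lie at chr17:23679115-23679364 for Cldn6 (plus strand), chr11:69965171-69965420 for the downstream start of Cldn7 (plus), chr15:102004343-102004592 for Krt8 (minus), chr15:102027966-102028215 for Krt18 (plus) and chr17:87635729-87635978 for Epcam (plus).
Cldn6: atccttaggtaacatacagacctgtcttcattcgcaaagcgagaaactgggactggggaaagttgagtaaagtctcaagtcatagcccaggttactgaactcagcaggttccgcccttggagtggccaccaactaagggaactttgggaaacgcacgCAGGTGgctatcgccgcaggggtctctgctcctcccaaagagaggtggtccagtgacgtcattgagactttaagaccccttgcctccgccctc
Cldn7: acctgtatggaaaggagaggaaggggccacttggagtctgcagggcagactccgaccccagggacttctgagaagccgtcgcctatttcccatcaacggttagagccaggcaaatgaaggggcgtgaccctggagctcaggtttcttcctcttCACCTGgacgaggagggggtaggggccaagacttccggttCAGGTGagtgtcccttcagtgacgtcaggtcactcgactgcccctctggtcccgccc
Krt8: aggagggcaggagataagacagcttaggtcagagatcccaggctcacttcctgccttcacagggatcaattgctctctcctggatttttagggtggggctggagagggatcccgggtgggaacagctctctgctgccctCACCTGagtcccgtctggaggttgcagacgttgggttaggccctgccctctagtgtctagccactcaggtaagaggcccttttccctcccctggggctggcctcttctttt
Krt18: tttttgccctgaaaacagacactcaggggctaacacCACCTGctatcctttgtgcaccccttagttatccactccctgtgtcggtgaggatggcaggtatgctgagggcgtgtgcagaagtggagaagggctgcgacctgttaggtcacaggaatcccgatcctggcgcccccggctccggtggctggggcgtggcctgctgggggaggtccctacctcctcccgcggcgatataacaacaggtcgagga
Epcam: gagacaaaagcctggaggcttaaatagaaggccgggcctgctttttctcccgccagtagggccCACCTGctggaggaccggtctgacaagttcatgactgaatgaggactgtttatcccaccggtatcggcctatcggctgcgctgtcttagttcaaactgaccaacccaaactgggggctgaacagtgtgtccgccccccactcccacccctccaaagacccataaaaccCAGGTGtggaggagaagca

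The downstream window of Cldn7 and the window of Epcam each had 2 matches, where 2.06% of all windows had 2 or more. The Epcam window carried the motif like the other windows shown, although Epcam did not pass the test in whole EBs. A match of 6 letters is a description of the window and not a site, and binding by a repressor was not tested.

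Across whole EBs, 8 of the 10 genes fell in LSD1 KO, with log2 fold changes between −1.0 for Cdh1 and −4.58 for Cldn7, and 0 rose. The members that fell were the 3 claudins, the 4 keratins and Cdh1. Epcam and Cdh2 were not called. Values are UMIs summed over the cells of a library and scaled to CPM with the TMM factors of edgeR, and tests are edgeR's quasi-likelihood test, adjusted over all 16953 genes tested. A call is an adjusted p under 0.05. Of all genes, 21.6% fell and 22.6% rose, and the median log2 fold change was −2.44 over the 10 genes, against −0.0009 over all genes. Scaled by library totals alone, 4839 genes rose and 2583 fell and the median of all genes moved to 0.13, with the same 8 members called. In such sums, fewer cells of a type and less RNA per cell cannot be told apart.

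Cldn7 (chr11:69778281-69781387 of mm9, plus strand), a claudin of most simple epithelia that binds Epcam, had 9.38 and 7.40 CPM in LSD1 KO EBs, against 232 and 169 CPM in WT EBs. The groups lay far apart, with a log2 fold change of −4.58 (SE 0.22, adjusted p = 0.000411). Cldn6 (chr17:23816332-23819413, plus strand), an embryonic claudin of early endoderm that the study itself used as an endoderm marker, stood at 11.9 and 11.6 CPM in LSD1 KO EBs and at 149 and 110 CPM in WT EBs. Its replicates were closer to each other in LSD1 KO than in WT, and it fell by 3.46 on the log2 scale (SE 0.17, adjusted p = 0.000411). Cldn4 (chr5:135420996-135422804, minus strand), a claudin that tightens epithelia, was scarce, at 2.79 and 2.45 CPM in LSD1 KO EBs, against 13.5 and 8.49 CPM in WT EBs. It too did not overlap between genotypes, with a log2 fold change of −2.07 (SE 0.26, adjusted p = 0.00325).

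Among the keratins, the basic Krt8 (chr15:101827142-101834773, minus strand) had 181 and 89.2 CPM in LSD1 KO EBs, against 755 and 564 CPM in WT EBs. Its acidic partner Krt18 (chr15:101858647-101862457, plus strand), a near neighbour on the same chromosome, had 173 and 113 CPM in LSD1 KO EBs and 957 and 754 CPM in WT EBs. The partners fell alike, by 2.29 (SE 0.35, adjusted p = 0.00566) and by 2.58 (SE 0.24, adjusted p = 0.00143) on the log2 scale. Krt8 UMIs were 1.04 and 0.790 times those of Krt18 in LSD1 KO EBs, against 0.789 and 0.748 times in WT EBs, so the ratio of LSD1 KO replicate 2 was next to that of WT replicate 1.

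Krt19 (chr11:100002124-100009979, minus strand), the short acidic keratin of ducts and early epithelia, had 20.5 and 7.02 CPM in LSD1 KO EBs, against 105 and 80.6 CPM in WT EBs. LSD1 KO replicate 1 was the higher of its genotype for Krt8, Krt18 and Krt19, and stayed below both WT libraries for each. The log2 fold change of Krt19 was −2.75 (SE 0.49, adjusted p = 0.00854), and without LSD1 KO replicate 1 it was −3.72. For Krt8 the value without that library was −2.89. Krt7 (chr15:101241474-101260744, plus strand), a basic keratin of glandular and trophoblast epithelium, was almost not seen in LSD1 KO EBs, at 0.622 and 0.856 CPM, against 15.9 and 10.8 CPM in WT EBs (log2 fold change −4.18, SE 0.29, adjusted p = 0.000717).

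Epcam (chr17:88035319-88050446, plus strand), an adhesion molecule of ESCs and epithelia, stayed high while its partner Cldn7 did not. It had 258 and 266 CPM in LSD1 KO EBs, against 299 and 280 CPM in WT EBs. The log2 fold change of −0.15 (SE 0.09, adjusted p = 0.242) was small although the groups did not overlap. For each Cldn7 UMI there were 27.5 and 36.0 Epcam UMIs in LSD1 KO EBs, against 1.29 and 1.66 in WT EBs.

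Of the cadherins, Cdh1 (chr8:109127251-109194146, plus strand) had 82.2 and 87.0 CPM in LSD1 KO EBs, against 192 and 146 CPM in WT EBs, a log2 fold change of −1.0 (SE 0.14, adjusted p = 0.00467). Cdh2, on the minus strand of chromosome 18, had 238 and 141 CPM in LSD1 KO EBs, against 113 and 128 CPM in WT EBs. Both LSD1 KO libraries were the higher, but replicate 2 was close to the WT libraries, and the log2 fold change of 0.65 (SE 0.25, adjusted p = 0.0788) missed the threshold. It passed with DESeq2 (0.66, adjusted p = 0.0179) and without LSD1 KO replicate 2 (0.99, adjusted p = 0.00529), and was 0.23 without LSD1 KO replicate 1. The ratio of Cdh1 to Cdh2 UMIs was 0.345 and 0.618 in LSD1 KO EBs and 1.69 and 1.15 in WT EBs.

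**Figure D1:**
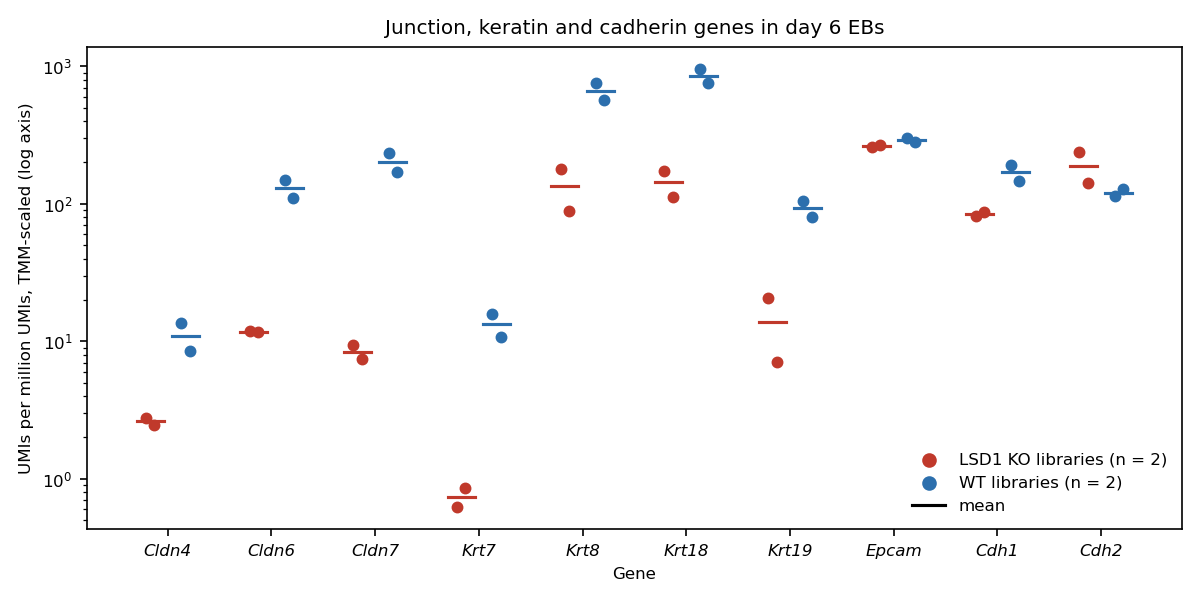
TMM-scaled CPM (y axis, log scale) of the 10 genes in whole day 6 EBs, with 1 point per library, 2 LSD1 KO libraries in red left of 2 WT libraries in blue, and a bar at each mean. The LSD1 KO points lie below the WT points for the claudins, the keratins and Cdh1, nearly level for Epcam (258 and 266 against 299 and 280) and above them for Cdh2 (238 and 141 against 113 and 128).

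To set these levels against the cell types of the EBs, each cell was given to the type with most of its own markers seen, of 12 types with 112 markers that include none of the 10 genes. At least 3 markers were needed, a minimum chosen after looking at the data. The gates are named by their marker lists. Cells gated as pluripotent were 41.9% ± 8.0 of the cells in LSD1 KO, against 3.05% ± 2.3 in WT (SD, n = 2 each), and the neuron gate held 16.2% ± 2.4 in LSD1 KO, against 1.49% ± 0.27 in WT. The gut endoderm gate held 0.121% ± 0.078 in LSD1 KO, against 20.1% ± 2.3 in WT, and the cardiac and lateral mesoderm gate held 0.0252% ± 0.011, against 18.8% ± 2.6. None of these overlapped, with an exact permutation p of 0.33 each (two-sided), the smallest that 2 against 2 can give. The primitive streak gate overlapped, at 5.67% ± 6.2 in LSD1 KO and 1.20% ± 0.35 in WT (exact permutation p = 0.667). Cells of no gate were 35.4% ± 0.68 in LSD1 KO and 44.9% ± 3.4 in WT.

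In LSD1 KO EBs Cldn6 and Cldn7 lay in a narrow range. Levels are given for gates of at least 30 cells in a library, and orders below hold among these. They are plain CPM, scaled to the UMIs of the gated cells without TMM factors and averaged over 2 libraries. Cldn7 lay between 8.27 and 10.0 CPM and Cldn6 between 8.36 and 13.7 CPM in the pluripotent, neuron and primitive streak gates and in cells of no gate. Cldn4 was lower and less even, at 0.860 ± 0.30 CPM (SD, n = 2) in the primitive streak gate, 1.64 ± 0.74 in the neuron gate, 3.08 ± 0.43 in pluripotent cells and 3.45 ± 2.6 in cells of no gate, which overlapped the pluripotent and neuron gates. Cdh2 varied, at 538 ± 113 CPM (SD, n = 2) in the primitive streak gate, 216 ± 33.8 in the neuron gate and 124 ± 24.1 in pluripotent cells. Cdh1 took the reverse order, at 38.4 ± 11.9, 56.0 ± 23.0 and 112 ± 5.75 CPM in those gates, but its primitive streak and neuron gates overlapped. LSD1 KO libraries held 10 and 2 gut endoderm cells, 0 and 1 visceral endoderm cells and 1 and 1 cardiac and lateral mesoderm cells, too few for levels.

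In WT EBs, the endoderm gates carried most of the RNA of Cldn6 and Cldn7. The gut endoderm gate held 28.4% of all WT UMIs in gates and outside them, but 51.2% of those of Cldn7, 50.8% of Cldn6, 53.6% of Krt7, 48.0% of Epcam and 46.9% of Cdh1. It held 43.5% of Krt18, 43.2% of Cldn4, 37.0% of Krt8 and 31.9% of Krt19 UMIs, and 20.3% of those of Cdh2.

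Cldn7 was highest in the visceral endoderm gate, at 453 ± 29.5 CPM (SD, n = 2), and then in gut endoderm at 345 ± 78.0, and these did not overlap between libraries. Below them came the primitive streak gate at 132 ± 33.0, pluripotent at 108 ± 36.0 and neuron at 101 ± 5.29, each overlapping the next in this order. Mesoderm followed, with paraxial mesoderm at 36.6 ± 23.5, cardiac and lateral mesoderm at 31.1 ± 4.60 and endothelium at 24.6 ± 9.08, again with overlap. Cldn6 ran in the same order, from 274 ± 14.1 CPM in visceral endoderm and 220 ± 41.8 in gut endoderm, through 114 ± 0.641 in primitive streak, 58.5 ± 23.5 in pluripotent and 49.8 ± 5.62 in neuron gates. It was at 25.6 ± 15.4 in paraxial mesoderm, 21.6 ± 2.55 in cardiac and lateral mesoderm and 11.2 ± 4.49 in endothelium. Its pluripotent and neuron gates overlapped, as did both mesoderm gates. Cldn4 was at 16.2 ± 6.38 in gut endoderm and at 14.7 ± 3.60 in the neuron gate, which overlapped, and at 1.28 ± 0.481 in cardiac and lateral mesoderm.

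Keratin RNA was counted in the mesoderm gates as well. WT barcodes under 100 UMIs, which hold RNA free in the droplets, had more, at 818 and 611 CPM of Krt8 and 1128 and 811 CPM of Krt18. The part of this free RNA in the levels of the gates was not tested. Krt8 was at 816 ± 129 CPM in gut endoderm, 760 ± 62.8 in visceral endoderm and 562 ± 173 in cardiac and lateral mesoderm. Its lowest level was 98.8 ± 46.7 in endothelium. Krt18 was at 1246 ± 159 in gut endoderm, 1052 ± 109 in visceral endoderm, 534 ± 162 in cardiac and lateral mesoderm and 121 ± 44.7 in endothelium. The Krt8 to Krt18 ratio of UMIs was 0.668 and 0.639 in gut endoderm, but 1.05 and 1.05 in cardiac and lateral mesoderm and 1.22 and 1.23 in paraxial mesoderm, with no overlap among these 3 gates. Krt19 was at 99.9 ± 22.3 in gut endoderm and 31.1 ± 9.75 in cardiac and lateral mesoderm, and at 137 ± 22.3 in cells of no gate. In WT replicate 1 the primitive streak (166) and pluripotent (156) gates exceeded its cells of no gate (152), and the surface ectoderm or trophoblast gate, with 4 and 8 WT cells, had 437 and 507 CPM. Krt7 was at 24.2 ± 7.51 in gut endoderm and at most 8.51 in any other gate of 30 cells or more.

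Epcam was at 468 ± 40.9 CPM in gut endoderm, 397 ± 17.2 in visceral endoderm and 396 ± 58.1 in pluripotent cells, the last 2 overlapping, and at 50.1 ± 1.66 in cardiac and lateral mesoderm. Cdh1 followed Epcam, at 267 ± 59.5 in gut endoderm, 193 ± 29.7 in visceral endoderm, 183 ± 29.2 in pluripotent cells and 29.2 ± 5.46 in cardiac and lateral mesoderm. Cdh2 ran the other way only in part. It was at 268 ± 7.45 in primitive streak, 184 ± 3.03 in paraxial mesoderm and 173 ± 11.6 in cardiac and lateral mesoderm, the last 2 close to each other. Pluripotent cells had 28.5 ± 6.60. Gut endoderm, at 82.7 ± 18.8, was above endothelium at 48.6 ± 6.46, where Epcam (35.9 ± 7.54) and Cdh1 (21.2 ± 0.141) were lowest. The neural progenitor gate reached 30 cells only in WT replicate 2, with 75 cells at 163 CPM of Cdh2, 36.8 CPM of Cdh1 and 28.1 CPM of Cldn7.

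**Figure D2:**
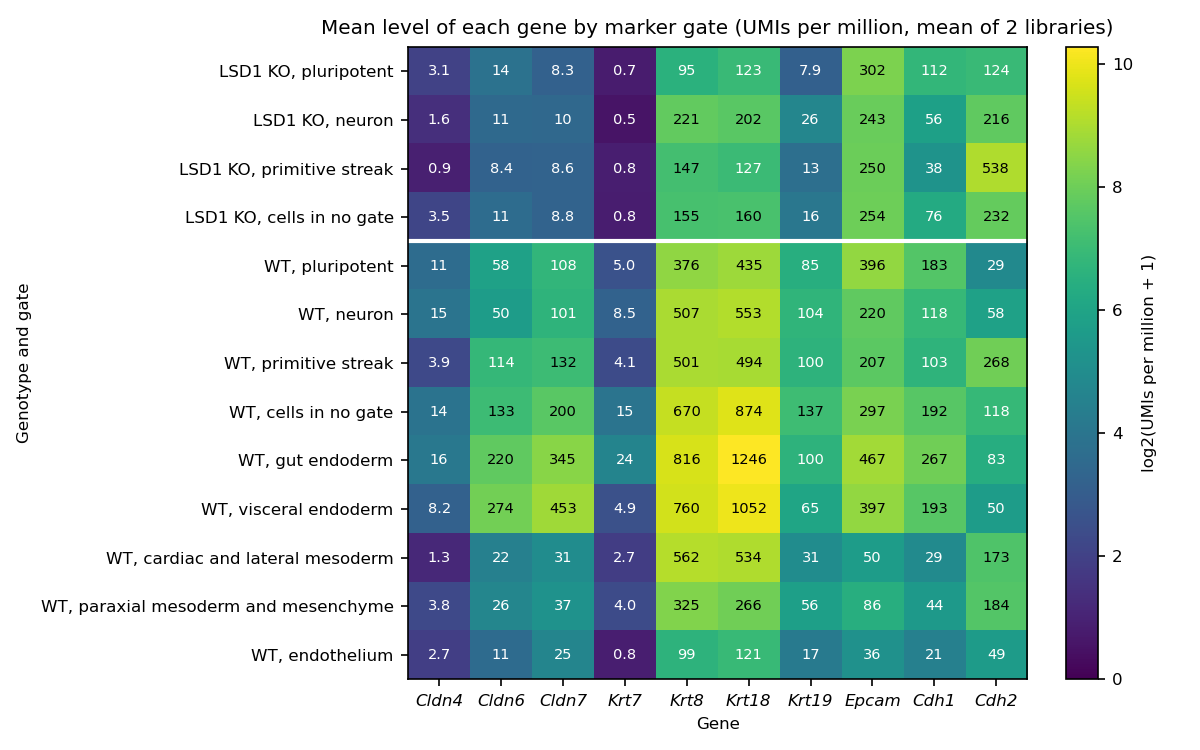
Mean plain CPM (number in each cell; colour, log2 of CPM + 1) of the 10 genes by marker gate, with LSD1 KO gates above WT gates and 2 libraries averaged in each row. Cldn6 and Cldn7 are near 10 in every LSD1 KO gate and reach 274 and 453 in WT visceral endoderm, and Cdh2 is highest in the primitive streak gate of both genotypes (538 in LSD1 KO, 268 in WT).

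Only 3 gates held at least 30 cells in all 4 libraries and could be tested between genotypes. Pluripotent cells numbered 2063 and 1448 in LSD1 KO libraries and 63 and 319 in WT libraries. There, Cldn4, Cldn6, Cldn7, Krt7 and Cdh1 fell and Cdh2 rose. Of 14716 genes tested in this gate, 6.00% fell and 7.50% rose. Cldn7 had 9.39 and 6.99 CPM in LSD1 KO cells, against 133 and 84.6 CPM in WT cells (log2 fold change −3.68, SE 0.25, adjusted p = 0.00239 in the edgeR fit of this gate). Cldn6 had 13.6 and 13.6 CPM in LSD1 KO cells, against 74.8 and 42.8 CPM in WT cells, and fell by 2.02 (SE 0.25, adjusted p = 0.00809). Without WT replicate 1, whose pluripotent cells carried visceral endoderm markers (given with the keratins), the values were −3.39 for Cldn7 and −1.67 for Cldn6, with adjusted p of 0.00102 and 0.00227. WT barcodes under 100 UMIs, which hold RNA free in the droplets, had 206 and 151 CPM of Cldn7 and 131 and 99.99 CPM of Cldn6, more than the WT pluripotent cells. The part of this free RNA in the difference was not tested.

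Cdh2 moved the other way in these cells, with 140 and 107 CPM in LSD1 KO, against 33.1 and 24.4 CPM in WT, a log2 fold change of 2.17 (SE 0.21, adjusted p = 0.00399). Cdh1 had 107 and 116 CPM in LSD1 KO and 203 and 167 CPM in WT (log2 fold change −0.71, SE 0.12, adjusted p = 0.0193, and 0.0569 without LSD1 KO replicate 1). The Cdh1 to Cdh2 ratio of UMIs was 0.767 and 1.09 in LSD1 KO pluripotent cells, against 6.14 and 6.81 in WT pluripotent cells. Cldn4 had 2.74 and 3.36 CPM in LSD1 KO and 14.2 and 8.57 CPM in WT (log2 fold change −1.77, SE 0.33, adjusted p = 0.0234), and 0.0663 was its adjusted p without LSD1 KO replicate 1. Krt7 was at 0.422 and 0.988 CPM in LSD1 KO and at 7.09 and 3.02 CPM in WT. Its adjusted p of 0.0491 (log2 fold change −2.55, SE 0.65) was lost without any of the 4 libraries, at 0.0740 to 0.340.

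The other keratins of the pluripotent gate were high in 1 WT library, replicate 1. Krt8 had 113 and 74.5 CPM in LSD1 KO cells, against 643 and 110 CPM in WT cells, and Krt18 had 139 and 104 CPM, against 707 and 163 CPM. Krt19 had 10.4 and 5.20 CPM in LSD1 KO cells, against 155 and 14.9 CPM in WT cells. None was called, at adjusted p of 0.117, 0.0948 and 0.0727, and without WT replicate 1 the log2 fold changes shrank to −0.25, −0.44 and −0.95. Without any other single library all 3 were called, with log2 fold changes of −1.71 to −2.76 for Krt8, −1.63 to −2.52 for Krt18 and −2.9 to −4.31 for Krt19. The 63 pluripotent cells of WT replicate 1 also had 126 CPM summed over 10 visceral endoderm markers, with 4 of these at 0 (Apoa1, Apoa4, Apom and Afp), against 7.33 to 9.58 CPM in the other libraries. The part of endoderm RNA in the claudin and keratin values of this gate was not tested. Epcam had 302 and 297 CPM in LSD1 KO cells, against 436 and 364 CPM in WT cells (log2 fold change −0.41, SE 0.11, adjusted p = 0.0618). It was called without WT replicate 1 (−0.29) and without WT replicate 2 (−0.52). LSD1 KO pluripotent cells carried 54.4 and 69.1 CPM of naive and germ cell markers, against 238 and 691 CPM in WT pluripotent cells, so the gated cells were not of 1 state.

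The primitive streak gate, with 573 and 39 LSD1 KO cells and 42 and 99 WT cells, held 8 members in the test, since Cldn4 and Krt7 did not pass the filter on low counts. Cldn6, Cldn7, Krt8, Krt18, Krt19 and Cdh1 fell and Cdh2 rose, where 11.5% of 9075 genes fell and 11.7% rose. Cdh2 had 588 and 451 CPM in LSD1 KO cells, against 288 and 287 CPM in WT cells (log2 fold change 0.87, SE 0.15, adjusted p = 2.26e-05 in the edgeR fit of this gate). Cdh1 had 44.6 and 29.5 CPM in LSD1 KO cells and 139 and 80.2 CPM in WT cells (log2 fold change −1.40, SE 0.22, adjusted p = 3.27e-06). Both LSD1 KO sums of this gate had more Cdh2 than any other gate and library with at least 30 cells.

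Cldn6 in this gate had 8.80 and 7.38 CPM in LSD1 KO, against 119 and 125 CPM in WT (log2 fold change −3.83, SE 0.24, adjusted p = 7.88e-16), and Cldn7 had 8.18 and 8.44 CPM, against 163 and 118 CPM (−4.07, SE 0.24). Krt8 had 179 and 104 CPM in LSD1 KO and 619 and 453 CPM in WT (−1.84, SE 0.18), and Krt18 had 142 and 103 CPM, against 552 and 507 CPM (−2.06, SE 0.16). Krt19 had 15.9 and 8.44 CPM in LSD1 KO and 175 and 36.9 CPM in WT (−2.80, SE 0.35). Its value moved to −1.37 without WT replicate 1, to −3.57 without WT replicate 2 and to −3.56 without LSD1 KO replicate 1. SEs and p-values of this gate rest on spread moderated over all genes tested, while the WT values of Krt19 lay far apart. Epcam had 219 and 267 CPM in LSD1 KO, overlapping 233 and 210 CPM in WT (0.11, adjusted p = 0.661). Pluripotency markers summed to 1073 and 1205 CPM in the LSD1 KO cells of this gate, against 179 and 187 CPM in the WT cells, and cardiac and lateral mesoderm markers to 60.5 and 51.4 CPM, against 135 and 188 CPM. Their part in the differences was not tested.

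In the neuron gate, with 1020 and 442 LSD1 KO cells and 57 and 115 WT cells, Cldn4, Cldn6, Cldn7, Krt7, Krt18 and Cdh1 fell and Cdh2 rose. Of 13079 genes, 5.97% fell and 6.92% rose. The name holds poorly for LSD1 KO cells and only in part for WT cells. Leading genes of the LSD1 KO cells against other cells were Acta2, Crabp1, Igfbp5 and Tagln. Only 2 of their 10 leading genes (Stmn3 and Nefm) were neuron markers. Pluripotency markers summed to 813 and 891 CPM in LSD1 KO cells, against 116 and 157 CPM in WT cells. Gap43 and Stmn3 led in WT cells of the gate, but they were the only neuron markers among the 10 leading genes there too. Dcx was at 0 in the gated cells of both WT libraries. WT cells of the gate also held keratin RNA, at mean plain CPM of 507 for Krt8 and 553 for Krt18. They had more Cdh1 (118) than Cdh2 (58.1). Free RNA of the WT libraries had more Krt8 (818 and 611 CPM) and Krt18 (1128 and 811 CPM) than these cells. The part of free RNA or of mixed cells in the differences of this gate was not tested.

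Cldn7 there had 11.4 and 8.15 CPM in LSD1 KO, against 107 and 102 CPM in WT (log2 fold change −3.40, SE 0.18, adjusted p = 0.000442 in the edgeR fit of this gate), and Cldn6 had 12.6 and 8.07 CPM, against 54.7 and 47.8 CPM (−2.30, SE 0.25, adjusted p = 0.00448). Cdh2 had 234 and 188 CPM in LSD1 KO and 41.0 and 79.1 CPM in WT (1.81, SE 0.26, adjusted p = 0.00821). Cldn6, Cldn7 and Cdh2 kept their calls whichever library was left out. Cldn4 had 2.11 and 1.09 CPM in LSD1 KO, against 12.3 and 17.9 CPM in WT (−3.21, SE 0.44), with an adjusted p of 0.00752, and of 0.0779 without WT replicate 2. Krt7 had 0.447 and 0.466 CPM in LSD1 KO, against 8.89 and 8.64 CPM in WT (−4.22, SE 0.46, adjusted p = 0.00448). Cdh1 had 70.3 and 38.8 CPM in LSD1 KO, against 128 and 115 CPM in WT (−1.15, SE 0.27, adjusted p = 0.0372), and Krt18 had 266 and 128 CPM, against 630 and 507 CPM (−1.53, SE 0.31, adjusted p = 0.0243). Krt7, Cdh1 and Krt18 lost their calls without either WT library, at adjusted p of 0.0527 to 0.187, and Krt18 moved to −2.14 without LSD1 KO replicate 1.

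Krt8 in the neuron gate had 316 and 116 CPM in LSD1 KO, against 620 and 422 CPM in WT, and Krt19 had 41.7 and 8.15 CPM, against 122 and 91.7 CPM. Their adjusted p values were 0.0930 and 0.0757, and both were called without LSD1 KO replicate 1 (−2.16 and −3.69) and without LSD1 KO replicate 2 (−0.71 and −1.34). Epcam had 249 and 226 CPM in LSD1 KO and 225 and 228 CPM in WT, which overlapped (0.07, adjusted p = 0.684).

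The difference of LSD1 KO from WT was compared between gates. LSD1 KO Cldn6 was at mean plain CPM of 8.36 to 13.7 in the 3 tested gates, where free RNA of the LSD1 KO libraries had 11.2 and 6.43 CPM. The part of free RNA in the differences between gates was not tested. A fit of the 12 sums of 3 gates in 4 libraries, with a term for each library, covered 12449 genes and was chosen after seeing the data. The Cdh2 log2 fold change was smaller in the primitive streak gate than in the pluripotent gate, with a difference of −1.33 (SE 0.24, adjusted p = 0.00482 in edgeR's test), while that of Cldn6 was more negative, with a difference of −1.89 (SE 0.33, adjusted p = 0.00420). Of all genes, 4.55% differed between these gates. Between neuron and pluripotent gates 0 of the 10 genes differed in this edgeR test, where 1.21% of all genes did. Between neuron and primitive streak gates Cldn6 differed by 1.61 (SE 0.35, adjusted p = 0.0342), where 1.45% of all genes did. The Cdh2 call was lost without either LSD1 KO library, at adjusted p of 0.111 and 0.0565. The Cldn6 call against the pluripotent gate was lost without LSD1 KO replicate 1 or WT replicate 2, at 0.176 and 0.0622, and that against the neuron gate without any library but WT replicate 1, at 0.0714 to 0.614.

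**Figure D3:**
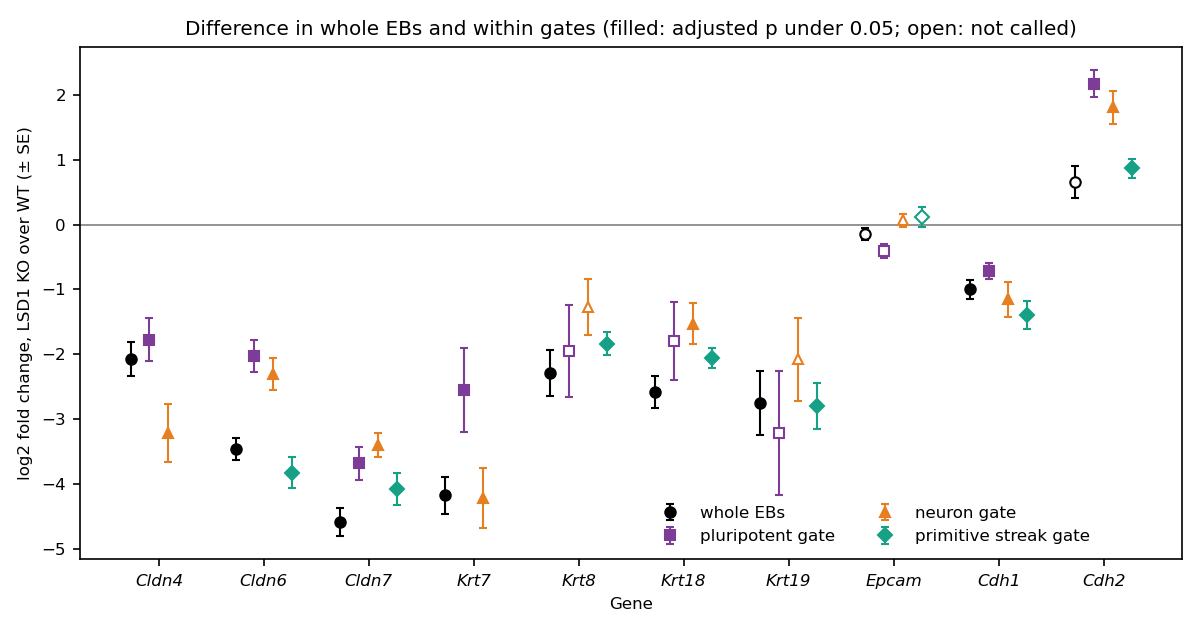
Log2 fold change of LSD1 KO over WT (y axis, ± SE) of each gene in whole EBs and in the 3 tested gates, with filled symbols for an adjusted p under 0.05. Cldn7 is the lowest in whole EBs (−4.58), Epcam has open symbols between −0.41 (pluripotent) and 0.11 (primitive streak), and Cdh2 lies above 0 in whole EBs (0.65, open symbol) and in the pluripotent (2.17), neuron (1.81) and primitive streak (0.87) gates.

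Numbers of cells with a UMI were compared after thinning each cell to 2000 UMIs, which left out 817 and 576 LSD1 KO cells and 691 and 422 WT cells. Cldn7 was seen in 1.69% ± 0.10 of LSD1 KO cells, against 23.0% ± 4.0 of WT cells (SD, n = 2 each), and Cldn6 in 2.82% ± 0.018 of LSD1 KO cells, against 17.5% ± 2.8 of WT cells. Unthinned, Cldn7 was seen in 10.1% and 12.6% of LSD1 KO cells and in 42.6% and 40.2% of WT cells. Cells of the WT endothelium gate, which should lack both claudins, gave 3.70% and 1.63% for Cldn7 and 1.85% and 0.813% for Cldn6, at median depths of 15714 and 9482.5 UMIs before thinning. These WT cells sat in free RNA that held more of both claudins than that of LSD1 KO libraries, so their shares are no measure of the LSD1 KO background. The LSD1 KO share of Cldn6 lay above both of them.

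Krt8 was seen in 16% ± 8.3 of LSD1 KO cells, against 53.3% ± 4.8 of WT cells, and Krt18 in 18.8% ± 5.2 of LSD1 KO cells, against 56.2% ± 5.5 of WT cells. The endothelium gate gave 5.56% and 6.50% for Krt8 and 6.48% and 7.32% for Krt18, below every library. Krt19 was seen in 2.31% ± 1.5 of LSD1 KO cells, against 9.82% ± 1.3 of WT cells, Cldn4 in 0.723% ± 0.066, against 1.63% ± 0.45, and Krt7 in 0.173% ± 0.16, against 1.67% ± 0.42. For Krt7 the endothelium gate gave 0 of 108 and 0 of 123 cells, which allows a share of up to 2.78% and 2.44%. Cdh1 was seen in 16.3% ± 0.65 of LSD1 KO cells, against 22.4% ± 4.6 of WT cells, and Cdh2 in 30% ± 6.6, against 20% ± 2.0. In all, 8 genes were lower and 2, Epcam and Cdh2, were higher in both LSD1 KO libraries, each with an exact permutation p of 0.33, the smallest possible. Of all 18454 genes, 22.5% were lower and 39.7% higher in both LSD1 KO libraries. Epcam was seen in 39.2% ± 0.19 of LSD1 KO cells, against 31.2% ± 1.0 of WT cells, which goes against its CPM, and no order is read from it.

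RNA free in the droplets was read from barcodes under 100 UMIs. Cldn6 was there at 11.2 and 6.43 CPM in LSD1 KO libraries, where cells had 12.5 and 12.1 plain CPM, and Cldn7 at 7.31 and 6.12 CPM, where cells had 9.90 and 7.68 CPM. In WT libraries Cldn7 was at 206 and 151 CPM in such barcodes and at 228 and 157 CPM in all cells, and the barcodes exceeded the WT pluripotent, neuron and primitive streak gates of the same library. Cldn6, at 131 and 99.99 CPM there, exceeded the WT pluripotent and neuron gates. Krt7, Krt8 and Krt18 (1128 and 811 CPM) in these barcodes exceeded all the WT gates tested. Cdh1 exceeded the neuron and primitive streak gates, Cldn4 the pluripotent and primitive streak gates and Cdh2 the pluripotent and neuron gates. Krt19 exceeded the pluripotent and primitive streak gates in WT replicate 2 alone, and Epcam exceeded none. Epcam was less frequent in free RNA than in cells in all 4 libraries, at ratios of 0.774 and 0.657 in LSD1 KO and 0.725 and 0.688 in WT. Krt8 and Krt18 were more frequent, at ratios of 1.10 to 1.35. How much of the levels within gates of either genotype came from free RNA was not tested.

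Whether the genes went together in the same cells was described at 5000 UMIs per cell. In LSD1 KO EBs Epcam was seen in 73.2% and 79.8% of the few cells with a Cldn7 UMI and in 68.9% and 69.8% of the others. In WT EBs it was seen in 82.1% and 82.7% of cells with a Cldn7 UMI and in 25.3% and 30.6% of the others. The shares lay close in LSD1 KO libraries, where most cells had Epcam, and far apart in WT libraries. Cldn7 itself was seen in 9.49% and 8.90% of LSD1 KO cells with a Cldn6 UMI and in 4.23% and 3.25% of those without, against 76.9% and 67.5% of WT cells with a Cldn6 UMI and 21.7% and 20.2% of those without.

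Krt18 was seen in 57.5% and 47.8% of LSD1 KO cells with a Krt8 UMI and in 32.1% and 25.9% of those without, against 88.6% and 82.8% of WT cells with a Krt8 UMI and 43.5% and 39.2% of those without. The cadherins were the reverse case. Cdh2 was seen in 52.8% and 38.5% of LSD1 KO cells with a Cdh1 UMI and in 59.5% and 49.2% of those without. In WT EBs it was seen in 23.8% and 23.8% of cells with a Cdh1 UMI and in 39.6% and 39.2% of those without. Cells with UMIs of both cadherins were 15.8% and 11.4% in LSD1 KO EBs and 9.98% and 8.47% in WT EBs. Over the 45 pairs of the 10 genes, a UMI of one gene came with a higher share of the other in 33 and 31 pairs in LSD1 KO libraries and in 36 and 37 pairs in WT libraries. The median ratio of shares was 1.22 and 1.23 in LSD1 KO and 1.89 and 1.96 in WT. At least 20 cells had both genes in 33 and 26 pairs in LSD1 KO libraries and in 44 and 45 pairs in WT libraries. Pairs of other genes were not counted, so these counts have no background. The depth of the cells, evened only down to 5000 UMIs, and free RNA are shared by all pairs of a library.

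**Figure D4:**
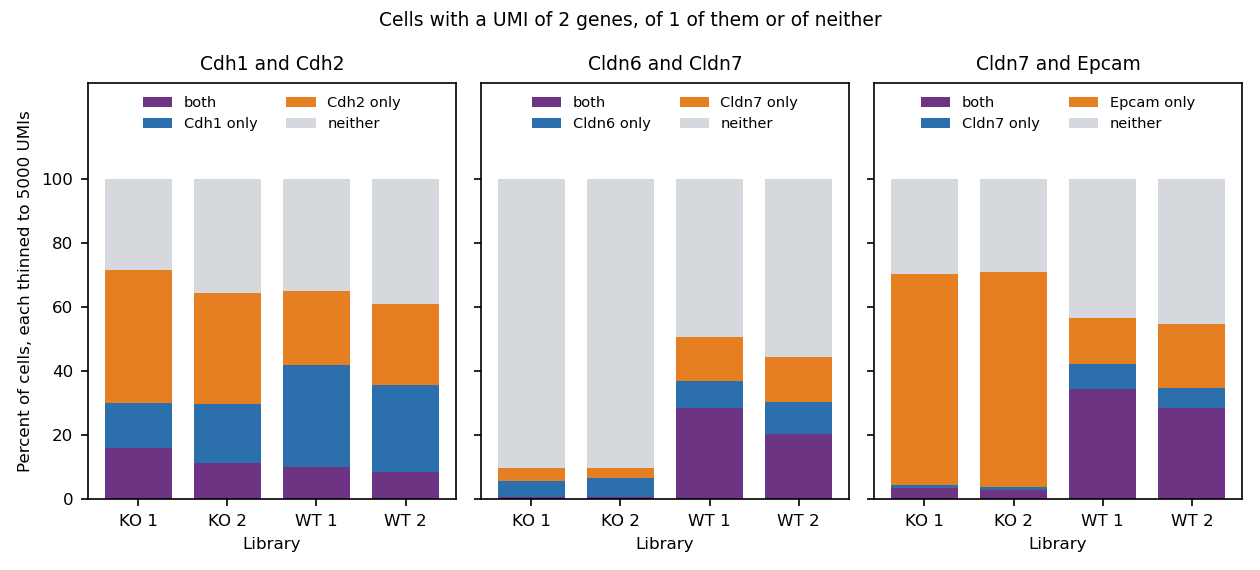
Percent of cells (y axis, each cell thinned to 5000 UMIs) with a UMI of both genes, of either alone or of neither, for 3 pairs of genes, with the 2 LSD1 KO libraries left of the 2 WT libraries. Cells with both cadherins are 15.8% and 11.4% in LSD1 KO and 9.98% and 8.47% in WT, and the Cldn7 segments nearly vanish in LSD1 KO while the Epcam segments do not.

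The genes around these members moved with them in part. Of 14 tight junction partners tested in whole EBs, 10 fell and 0 rose (edgeR, 21.6% of all genes fell), with a median log2 fold change of −0.85. Crb3, a polarity protein of the apical membrane, had 4.95 and 3.94 CPM in LSD1 KO EBs, against 40.8 and 30.5 CPM in WT EBs (log2 fold change −3.00, SE 0.20, adjusted p = 0.000693), and it fell in all 3 gates. The junction plaque protein Cgnl1 fell by 1.94 and the polarity scaffold Patj by 1.5. The other 4 genes of this list were not called.

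Of 15 adherens junction and desmosome partners, 8 fell and 1 rose, with a median of −0.49. The desmosomal plaque protein Dsp fell by 2.20, the desmosomal cadherin Dsg2 by 1.47 and the adhesion receptor Nectin2 by 0.55. The gene that rose was Ctnna2, the alpha-catenin of neurons, at 82.6 and 118 CPM in LSD1 KO EBs, against 15.4 and 10.7 CPM in WT EBs (log2 fold change 2.94, SE 0.25, adjusted p = 0.00111 from edgeR). It rose in each gate too, by 4.27 in pluripotent, 2.95 in neuron and 4.03 in primitive streak cells. Of 7 Epcam-related surface and protease genes, 6 fell and 0 rose, with a median of −1.51. Among them the membrane protease Prss8 fell by 3.46, the membrane protease St14 (matriptase) by 1.51 and the inhibitor of these proteases Spint2 by 1.48.

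Of 10 epithelial transcription and splicing factors, 5 fell and 1 rose, with a median of −1.17. Grhl2, which activates junction genes, fell by 1.72 and the epithelial splicing factor Esrp1 by 1.38. Ovol2, which represses Zeb1 and was named after its values were seen, rose by 0.66. Of 8 EMT factors and mesenchymal genes, 2 fell and 1 rose, which is near the shares of all genes, where 21.6% of all genes fell and 22.6% rose. Zeb1, a repressor of Cdh1, had 95.5 and 97.6 CPM in LSD1 KO EBs, against 60.9 and 59.3 CPM in WT EBs (log2 fold change 0.68, SE 0.08, adjusted p = 0.00249 from edgeR), and rose by 1.37, 1.12 and 0.77 in pluripotent, neuron and primitive streak gates. Its relative Zeb2 fell by 0.41 and Snai2 by 2.24 in whole EBs.

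Most other members of the 3 families were too low to test. Of 29 other claudins 11 were tested, of which 4 fell and 3 rose, and of 51 other keratins 12 were tested, of which 4 fell and 3 rose, where 21.6% of all genes fell and 22.6% rose, so that the rising shares were near that of all genes. No called gene of these reached the 20 CPM asked for before a gene was named. Of 7 other classical cadherins 3 fell and 2 rose, and Cdh11, a mesenchymal cadherin, fell by 2.65 and Cdh6, a cadherin of early neural and renal epithelium, by 2.10. In the primitive streak gate Cdh11 went the other way and rose by 1.25 (SE 0.25, adjusted p = 0.000235 from edgeR), and Cdh6 was not called in any of the 3 gates. In pluripotent cells 2 of 14 tight junction partners, 2 of 15 adherens junction and desmosome partners and 5 of 7 Epcam-related genes fell (6.00% of all genes), and 0, 2 and 0 rose.

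Over the 23 sums of gate and library with at least 30 cells (6 LSD1 KO and 17 WT), the genes most like each member were sought by Pearson's r of log2(CPM + 1). The sums share libraries and genotype, and r is given as a description. Beside the members themselves, Cldn6 was most like Espn (0.967), Crb3 (0.953) and Rab25 (0.927), and Cldn7 most like Espn (0.960), Ap1m2 (0.958) and Rab25 (0.958). Cldn6 and Cldn7 had an r of 0.955 with each other. Cldn4 was most like St14 (0.834), Asah1 (0.823) and Crb3 (0.816). Krt8 was most like Nlrp4e (0.982), Patj (0.914) and Nfe2l1 (0.856), and Krt18 most like Nlrp4e (0.954), Patj (0.935) and Tnnt3 (0.893). Krt8 and Krt18 had an r of 0.970 with each other. Krt7 was nearest to Patj (0.826), Akap9 (0.821) and Espn (0.820), and Krt19 to Nlrp4e (0.854), Sfn (0.841) and Hcfc1r1 (0.841). Epcam was nearest to Stx3 (0.916), Gm38426 (0.905) and Pick1 (0.902), and Cdh1 to Esrp1 (0.937), Kcnk1 (0.929) and Sptb (0.890). Cdh2 was nearest to Pbx3 (0.895), Hoxb1 (0.871) and Mrfap1 (0.867), and its r was below 0 with all 9 other members, down to −0.68 with Cldn4.

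Copies of members elsewhere in the genome limit some of these counts. The Krt8 transcript has a copy of 1734 bases at 97.9% identity at chr7:24142113-24143830 of mm9, within Nlrp4e, and Nlrp4e was the gene most like Krt8 (r of 0.982 over the 23 sums). Nlrp4e had 13.1 and 5.01 CPM in LSD1 KO EBs, against 41.1 and 39.5 CPM in WT EBs. Cdh2 has a copy of 1648 bases at 99.4% identity at chr4:86749327-86750969, within Slc24a2, which had 2.38 and 2.46 CPM in LSD1 KO EBs and 3.02 and 2.64 CPM in WT EBs (r with Cdh2 of 0.381). Krt18 has a copy of 1385 bases at 90.5% identity at chr13:118246579-118247933, with no gene annotated there. The other members had no copy of at least 300 bases at 90% identity. How many reads of these genes were lost or exchanged was not tested. Cdh2 overlaps Gm15485 on the other strand, and their reads are uncertain where strand was not used.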

How the data were processed

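Day 6 EBs of 2 LSD1 KO and 2 WT replicates were profiled by 10x 3′ single-cell RNA-seq. The authors ran Cell Ranger 7.1.0 with default parameters, with mm9 named in the submitters' processing notes, and used Seurat 4.3.0 downstream. The deposited matrices give raw counts of UMIs for each gene in each barcode, empty droplets included, with no normalization and no pooling, and 0 columns belonged to other samples.

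Cells had at least 500 UMIs and 500 genes, and genes a count in at least 10 cells, as in the study's methods. Doublets were not removed. Leaving out the cells above the 90th UMI percentile of each library was an alternative. UMIs were summed per library, or per gate and library where every library had 30 cells, and tested with edgeR 4.0.16 in R 4.3.3 (TMM, filterByExpr, Benjamini-Hochberg, threshold 0.05), which had first been tested on simulated data. DESeq2 1.42.0 was an alternative. Shares of cells were compared by exact permutation tests over libraries in Python 3.11.15 with scipy 1.17.1. Chi-square per degree of freedom between replicates was 27.8 (LSD1 KO) and 63.1 (WT), so replicates differed by more than sampling noise.

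Gene positions are from GENCODE M1 on mm9, copies from BLAST 2.17.0 against mm9, and promoters from RefSeq GRCm38.p6. The 10 genes, the 8 lists of related genes and the markers were chosen with earlier results of these data known. Beside the 10 genes and Kdm1a, each list names up to 3 genes per direction by fold change in whole EBs, among those called with at least 20 CPM in the higher genotype, and the 3 genes most like each member were found among genes that reach 20 CPM in a sum.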

Additional observations from a re-analysis of the deposited data

Results flagged for a closer look

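Between gates of the same libraries, 3 differences of the LSD1 KO effect passed the edgeR test. The Cdh2 log2 fold change was −1.33 in the primitive streak gate relative to the pluripotent gate. In that comparison the Cldn6 value was −1.89. Relative to the primitive streak gate, the Cldn6 value of the neuron gate was 1.61.

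Without LSD1 KO replicate 1, LSD1 KO replicate 2, WT replicate 1 and WT replicate 2 in turn, the Cdh2 difference was −1.35, −1.34, −1.42 and −0.96, with adjusted p of 0.111, 0.0565, 0.000194 and 0.0184. The Cldn6 difference from the pluripotent gate was −2.03, −1.76, −2.24 and −1.34, with adjusted p of 0.176, 0.0369, 0.00125 and 0.0622. That between neuron and primitive streak gates was 1.41, 1.78, 1.71 and 1.41, with adjusted p of 0.614, 0.0863, 0.0346 and 0.0714. All differences kept their sign in these fits.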

How the results depend on the processing

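In whole EBs the 8 calls of lower members were kept under all 11 alternatives, and the count of higher members was 1 with DESeq2 and 0 to 1 with a library left out. Of 465 values of single members under alternatives, 412 kept direction and call, 30 gained and 20 lost a call and 3 turned sign, all of Epcam: −0.16 in the neuron gate with 1 marker fewer, and −0.08 with high-UMI cells left out and −0.01 to 0.28 with a library left out in the primitive streak gate. Without thinning the Cdh1 share was 1.60 points higher in LSD1 KO. With 1 marker more, 2 members fell in the neuron gate, 281 genes fell and 402 rose there, and 4 types in place of 2 had higher shares in both LSD1 KO libraries. With 1 marker fewer, 1225 neuron gate genes fell and 1525 rose, and with no filter on genes 1460 rose. In the primitive streak gate DESeq2 called 460 lower and 447 higher genes, and library totals 645 lower and 1521 higher, where the median of all genes moved to 0.17. That gate was not run with 1 marker more, since WT replicate 1 then held under 30 cells. The replicate numbers gave 2 pairs whose deviations correlated at 0.157, which does not pair the samples. With the replicate block 9 members fell in the pluripotent gate, 1329 genes fell and 1742 rose there, and 1263 fell and 1500 rose in the neuron gate. Without single libraries, lower and higher genes numbered 2295 to 3251 and 2704 to 3415 in whole EBs, 364 to 1432 and 567 to 1504 in pluripotent, 107 to 835 and 136 to 1145 in neuron and 514 to 911 and 522 to 958 in primitive streak gates. Members that fell then numbered 8 in whole EBs, 5 to 8 in pluripotent, 2 to 8 in neuron and 6 in primitive streak gates. The cause of these shifts was not tested. With 57 to 63 WT cells in the smallest pluripotent and neuron sums, low genes such as Krt7 and Cldn4 had few UMIs there.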
